A study of Homo sapiens with 9 samples.

Results

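The genes described here are the histone genes that lie mostly in clusters and supply new histone protein when DNA is copied. The rule that picks them uses gene names and no measured value. Every probe set with a single gene symbol entered if its current symbol began with H1-, H2AC, H2BC, H3C or H4C and a number, or if an older symbol began with HIST1H, HIST2H, HIST3H or HIST4H. This gave 113 probe sets of 67 genes, among 49293 probe sets that are not array controls and 18132 genes with a probe set of their own. By family there were 13 probe sets of H1, 26 of H2A, 41 of H2B, 17 of H3 and 16 of H4. The rule also took in 2 probe sets annotated as pseudogenes (H1-9P and H2BC20P) and some genes outside the main clusters, such as the linker histone gene H1-10 and the testis histone gene H3-4. Of the 67 genes, 54 lie on chromosome 6 and 8 on chromosome 1.

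The cells were HCCC-9810, an established human cholangiocarcinoma line, which derives from a bile duct cancer. The 9 Affymetrix arrays fall into 3 groups of 3, which the submitters call biological replicates: cells transfected with BAP1 siRNAs (si-BAP1), cells transfected with MBD5 siRNAs (si-MBD5) and control cells. Control samples are titled si-Control but their treatment field names a control shRNA, which leaves the kind of control reagent unsettled. A time after transfection and the number of siRNAs are not given in the sources used here. BAP1 is a nuclear deubiquitinase that removes ubiquitin from histone H2A, and MBD5 is a methyl-CpG-binding domain protein that associates with BAP1-containing complexes. The values are intensities on a linear scale, so the number of arrays, not a read depth, limits the precision.

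Most clustered histone genes are transcribed in S phase, when a cell copies its DNA. Their messages normally lack introns and end in a stem-loop instead of a poly(A) tail, and the stem-loop-binding protein SLBP holds that end. H2A and H2B pair with each other, H3 pairs with H4, DNA wraps around the resulting octamer, and H1 binds the linker between octamers. Some clustered genes, such as H2BC5, H2BC12, H2AC6, H2BC4, H2BC21 and H1-2, are known to make polyadenylated transcripts as well. The labels cite the standard Affymetrix labelling protocol and name no primer, so the share of each signal that came from either kind of transcript was not tested.

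Clustered histone genes stand close together and carry short shared promoter elements. RefSeq promoters (GRCh38.p14, windows of 300 bases) were matched for 60 of the 67 genes. The octamer ATTTGCAT, the element read by OCT factors at H2B genes, was found on either strand in 26 of the 60 (43.3%), against 1.8% of 27303 promoters. It was present in 14 of 18 H2B and 11 of 14 H2A promoters, in 1 of 9 H3 promoters and in none of the 9 H1 or 10 H4 promoters. The CCAAT box (CCAAT) was present in 86.7% of the histone promoters against 35.7% of all, and the TATA box (TATAAA) in 63.3% against 12%. The H1 box (AAACACA) was found in 7 of 9 H1 promoters, against 5.76% of all promoters. A form of the E2F element (TTTGGCGC) was in none of the 60, against 0.659% of all. Both strands were searched for every element, none of the elements overlaps another in the stretches printed here, and a match is a description of the letters only.

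The 150 bases before the start are printed for 8 genes on which the results turn: the H2B genes H2BC5, H2BC11, H2BC12 and H2BC9, the neighbours H2AC6 and H2BC4, the H3 gene H3C4 and the linker gene H1-2. Each reads 5′ to 3′ on the gene's own strand, and capitals mark the octamer, CCAAT box, TATA box or H1 box on either strand. H2BC5 lies on the plus strand at chr6:26157971-26158120, H2BC9 on the plus strand at chr6:26251464-26251613 and H2AC6 on the plus strand at chr6:26124022-26124171. On the minus strand lie H2BC11 at chr6:27132796-27132945, H2BC12 at chr6:27146859-27147008, H2BC4 at chr6:26123927-26124076, H3C4 at chr6:26199294-26199443 and H1-2 at chr6:26056471-26056620.
H2BC5: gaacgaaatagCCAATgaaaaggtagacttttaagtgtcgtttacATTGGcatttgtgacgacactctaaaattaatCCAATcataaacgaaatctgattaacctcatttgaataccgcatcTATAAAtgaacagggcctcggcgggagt
H2BC11: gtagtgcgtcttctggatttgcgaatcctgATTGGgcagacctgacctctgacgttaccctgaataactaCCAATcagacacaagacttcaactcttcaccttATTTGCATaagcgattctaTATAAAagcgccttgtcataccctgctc
H2BC12: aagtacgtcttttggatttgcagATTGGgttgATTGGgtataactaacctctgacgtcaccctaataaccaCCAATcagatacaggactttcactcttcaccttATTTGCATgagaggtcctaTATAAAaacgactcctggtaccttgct
H2BC9: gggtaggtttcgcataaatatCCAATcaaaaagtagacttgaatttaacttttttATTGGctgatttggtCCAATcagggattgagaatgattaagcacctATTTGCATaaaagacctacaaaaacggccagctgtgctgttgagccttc
H2AC6: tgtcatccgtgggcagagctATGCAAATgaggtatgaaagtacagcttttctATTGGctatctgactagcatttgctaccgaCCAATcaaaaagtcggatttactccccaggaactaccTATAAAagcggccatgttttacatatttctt
H2BC4: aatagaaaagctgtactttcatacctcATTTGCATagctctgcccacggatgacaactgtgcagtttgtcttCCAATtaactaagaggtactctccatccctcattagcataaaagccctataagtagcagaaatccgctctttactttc
H3C4: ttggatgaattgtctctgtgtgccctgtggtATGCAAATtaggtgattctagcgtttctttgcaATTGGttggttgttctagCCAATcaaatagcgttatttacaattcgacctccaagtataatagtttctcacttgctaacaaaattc
H1-2: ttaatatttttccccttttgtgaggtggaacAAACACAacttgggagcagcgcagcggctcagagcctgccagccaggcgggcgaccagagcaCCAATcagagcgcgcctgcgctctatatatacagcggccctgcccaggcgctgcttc
The H2BC11, H2BC12 and H2BC9 stretches hold the octamer within about the same distance of the start, at -47, -46 and -49, while the H2BC5 stretch holds 3 CCAAT boxes and a TATA box with no octamer. H2AC6 and H2BC4 are divergent neighbours whose starts lie 246 bases apart, so their printed stretches overlap and 1 octamer is read from both sides. RefSeq gives H3C4 and H2AC7 the same window, so its octamer was counted for both. Which of these genes it serves was not tested.

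The signal of the histone probe sets was dim on average. A filter at the 40th percentile of mean intensity over the 9 arrays (an intensity of 25.5) left 50 of the 113 histone probe sets, of 36 genes, among 29576 tested in all. The other 63 had a mean intensity from 2.45 to 25.5 with a median of 11.3, and 31 genes had no probe set above the filter. Just inside it was the pseudogene probe set of H2BC20P, with a mean of 25.9. Below the filter, the 3 si-BAP1 arrays all lay above the 3 control arrays for 8 of the 63 probe sets (5.31% of all 19717 below the filter did so) and all below them for 1 (3.99% of all). For si-MBD5 the counts were 4 (5.35% of all) and 0 (2.61% of all). Counts below concern the 50 probe sets that passed.

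**Figure D1:**
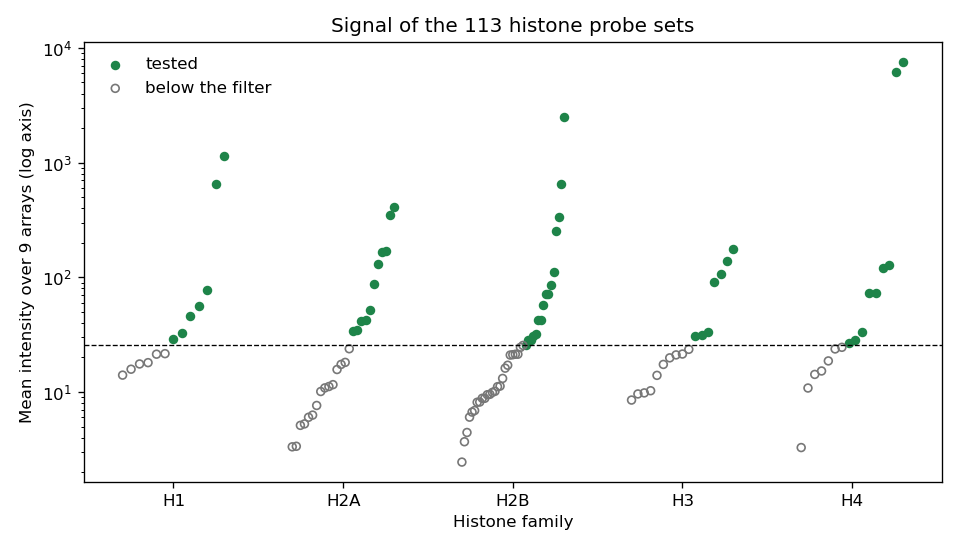
Mean intensity over the 9 arrays (log axis) of each of the 113 histone probe sets, by family; filled points were tested and open points lay below the filter of 25.5 (dashed line). Every family has probe sets on both sides of the line, and heights do not rank genes, since different probe sets bind with different strength.

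Across the 9 arrays, median intensity ran from 36.9 to 38.2, and the correlation of log2 values between arrays of 1 group was 0.9964 to 0.9985. Both MBD5 probe sets lay below the filter; the brighter read 7.04 ± 0.13 in control cells and 6.17 ± 0.056 in si-MBD5 cells (SD, n = 3 each), with no overlap between the arrays. The BAP1 transcript was not analysed here, so the si-BAP1 labels were not checked against their target. Of the bile duct and epithelial markers, KRT7, KRT8, KRT18 and SOX9 passed the filter. KRT8 rose by 0.31 in si-BAP1 cells (adjusted p = 0.00036) and KRT7 fell by 0.15 and 0.19 on the log2 scale in si-BAP1 and si-MBD5 cells (adjusted p = 0.0295 and 0.0155). SOX9 read 38.4 to 45.1 as group means and had no call. KRT19 (20.6 in control cells) and EPCAM (7.90) lay below the filter. The summed level of 4 immune markers was 89.2 to 111 in si-BAP1, 100.3 to 116 in control and 94.4 to 111 in si-MBD5 cells, with PTPRC at 3.35 in control cells. That of 4 fibroblast markers was 108 to 118 in si-BAP1, 103 to 107 in control and 111 to 125 in si-MBD5 cells; PDGFRB rose by 0.16 and 0.24 on the log2 scale, COL1A1 had no call, and COL1A2 and LUM (19.3 and 2.28 in control cells) lay below the filter. Sums of the hepatocyte and endothelial markers overlapped among the groups, and the part of any of these in the histone values was not tested. The 3′ to 5′ ratio of ACTB, a measure of RNA integrity, was 11.1 ± 0.31 in si-BAP1, 12.2 ± 0.52 in control and 12.3 ± 0.72 in si-MBD5 cells. The si-BAP1 range (10.8 to 11.4) lay below that of the control (11.8 to 12.8). The two-sided exact permutation p was 0.1, the smallest 3 against 3 arrays can give. The same ratio of GAPDH did not separate the groups. It was 1.06 ± 0.026 in control cells, and the si-BAP1 range (1.07 to 1.09) overlapped the control range. The exact permutation p for GAPDH was 0.3 for si-BAP1 and 0.7 for si-MBD5. The part of the ACTB difference in the results was not tested.

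After BAP1 knockdown, 5 of 10 tested H2B genes, 3 of 8 H2A genes, 2 of 5 H3 genes and 1 of 7 H4 genes had a probe set that rose, with the largest rises in H2BC5, H2BC11 and H3C4. One H2A gene, H2AC20, fell, and no H1 probe set passed the test. Of the 50 tested histone probe sets, 21 were called in si-BAP1 against control (42%), at a Benjamini-Hochberg adjusted p under 0.05 from limma over all probe sets; 20.2% of all 29576 probe sets were called. Rises made up 20 of the calls, where 11.4% of all probe sets were called higher, and 1 was a fall, where 8.78% were called lower. The 3 si-BAP1 arrays all lay above the 3 control arrays for 25 histone probe sets (20.5% of all probe sets did so) and all below them for 1 (15.1% of all), together 52% against 35.6%. The median log2 fold change was 0.12 over the 50 histone probe sets and 0.0085 over all tested; that of the histone probe sets was 0.044 without a filter, 0.057 without the _x_at and _s_at types described below, 0.080 per gene and 0.19 when only probe sets above the 60th percentile were kept. Log2 fold changes are on the scale of log2(intensity + 16), which understates the change of dim probe sets. In RNA from whole cultures, more cells that make a message and more of it per cell cannot be told apart.

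By family, 11 of 16 tested H2B probe sets, 4 of 11 of H2A, 4 of 7 of H3 and 1 of 9 of H4 were called higher, and 0 of 7 of H1, where 0 also had an unadjusted p under 0.05. The single fall was in H2A. The median log2 fold change was 0.29 in H2B, 0.14 in H2A, 0.21 in H3, 0.09 in H4 and 0.0040 in H1. Several probe sets can read the same gene, and their design names (_x_at and _s_at) mark probes that match more than 1 transcript, which is common among near-identical histone copies. Counted once per gene by its brightest probe set, 12 of 36 were called (33.3%, against 23.5% of all genes). Without those probe set types 9 of 28 were called (32.1%, against 19.2%). Every one of the 6 called genes with 2 or more tested probe sets had all of them called in 1 direction.

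**Figure D2:**
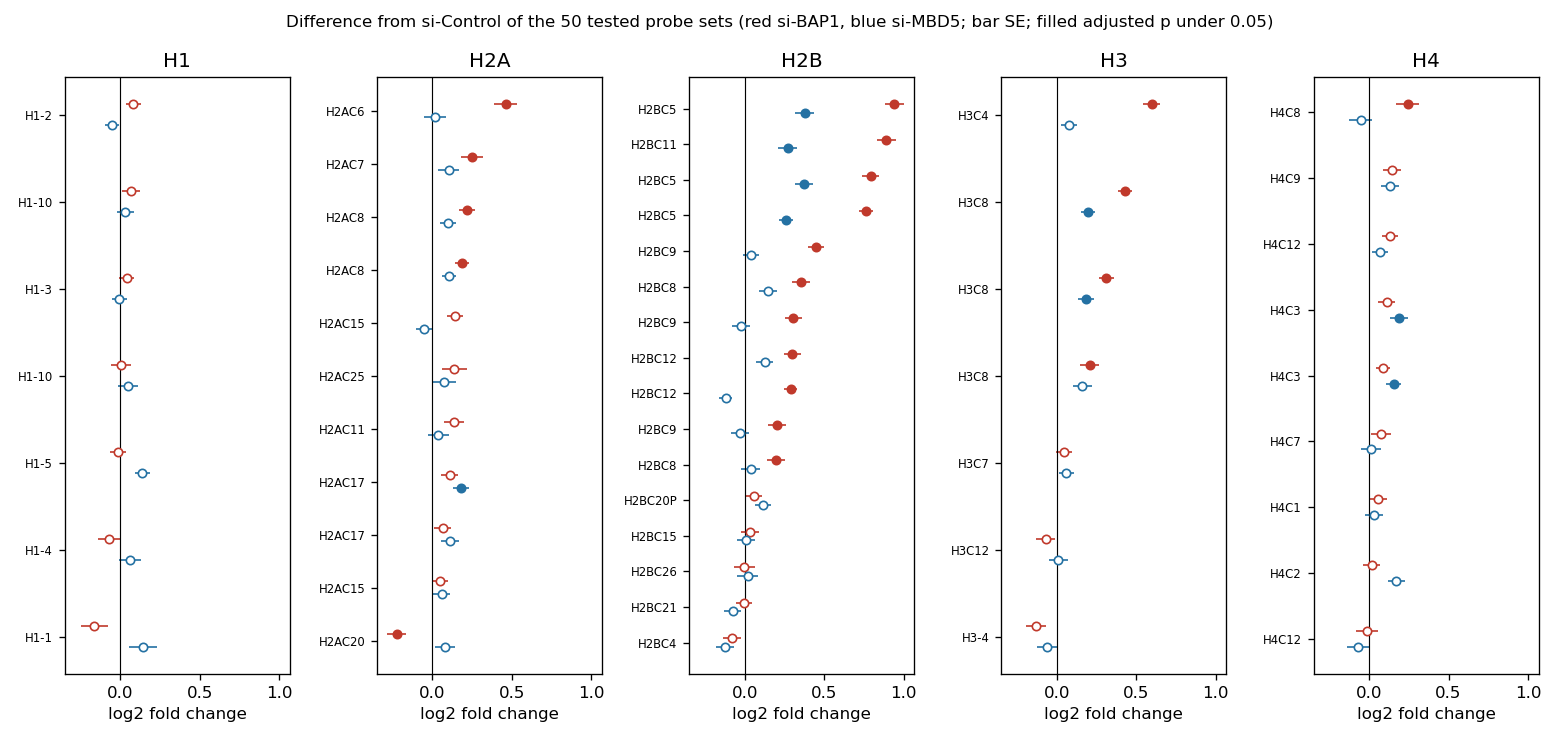
Log2 fold change against si-Control of the 50 tested histone probe sets, by family, in si-BAP1 (red) and si-MBD5 cells (blue); bars are standard errors and filled points have an adjusted p under 0.05. H2BC5, H2BC11 and H3C4 stand farthest to the right in red, and no H1 point is filled.

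On this scale H2BC5, which encodes an H2B, had the largest rise in si-BAP1 cells; with no added constant the rise of H2BC11 was larger (log2 1.24, against 0.97). The brightest H2BC5 probe set read 413, 483 and 486 on the control arrays, 908, 922 and 865 on the si-BAP1 arrays and 621, 619 and 567 on the si-MBD5 arrays. All 3 groups stood apart, with si-BAP1 highest and si-MBD5 between. The means were 898 ± 30 in si-BAP1, 461 ± 41 in control and 602 ± 31 in si-MBD5 cells (SD, n = 3), a log2 rise of 0.94 (SE 0.059, adjusted p = 3.75e-07) after BAP1 knockdown and of 0.38 (SE 0.059, adjusted p = 0.00111) after MBD5 knockdown. Its other tested probe sets rose by 0.77 and 0.79 in si-BAP1 cells and by 0.26 and 0.37 in si-MBD5 cells, with no overlap with the control arrays in either. Both knockdowns are set against the same 3 control arrays, here and for every gene that follows.

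H2BC11, another H2B gene, rose from a dim signal. The control arrays read 26.8, 24.7 and 30.2, the si-BAP1 arrays 64.7, 68.3 and 59.6, and the si-MBD5 arrays 34.7, 38.0 and 35.6. No 2 groups overlapped. The log2 rise was 0.89 in si-BAP1 (SE 0.059, adjusted p = 5.1e-07) and 0.27 in si-MBD5 cells (SE 0.059, adjusted p = 0.00843). The second of these lost its call without si-Control replicate 2 (log2 0.23, adjusted p = 0.0502). Both other H2BC11 probe sets were below the filter; the brighter read 16.1 ± 2.3 in si-BAP1 against 10.4 ± 0.85 in control cells, and the dimmer 7.18 ± 1.1 against 6.65 ± 1.2.

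H2BC12, an H2B gene with a polyadenylated form, rose by less in si-BAP1 cells, with little spread. It read 2448, 2393 and 2380.0 on the control arrays, 2856, 3129 and 2854 on the si-BAP1 arrays and 2153, 2314 and 2176 on the si-MBD5 arrays. The si-BAP1 arrays all lay above the control and the si-MBD5 arrays all below it. The log2 difference from control was 0.29 in si-BAP1 (SE 0.039, adjusted p = 0.000171) and -0.12 in si-MBD5 cells (adjusted p = 0.0635), which missed the threshold. The dimmer H2BC12 probe set also rose in si-BAP1 cells (log2 0.30, adjusted p = 0.0014). It had a log2 difference of 0.13 in si-MBD5 cells (adjusted p = 0.16), with the si-MBD5 arrays all above the control arrays. After MBD5 knockdown the H2BC12 probe sets thus lay on opposite sides of the control, and neither was called.

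H2BC9 was read by 3 tested probe sets, all higher in si-BAP1 cells, with log2 rises of 0.45, 0.31 and 0.20. The first of them read 26.8, 28.0 and 24.9 in control, 41.9, 41.9 and 42.1 in si-BAP1 and 25.9, 30.1 and 27.1 in si-MBD5 cells. The si-BAP1 arrays stood above both other groups, which overlapped each other. In si-MBD5 cells the log2 differences of these probe sets were 0.04, -0.02 and -0.03, with no call. The smallest H2BC9 rise lost its call without si-BAP1 replicate 1 (adjusted p = 0.0757) or si-Control replicate 3 (0.0508).

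H2BC8 rose by 0.35 (adjusted p = 0.000632) and 0.20 (adjusted p = 0.0297) on its 2 tested probe sets in si-BAP1 cells. The weaker call was lost in 6 of 19 other settings: without a filter (adjusted p = 0.058), without any 1 of the si-BAP1 arrays (up to 0.0872), and without si-Control replicate 1 (0.0932) or si-Control replicate 2 (0.144). Other H2B genes did not pass the test. H2BC4 read 56.6 ± 2.2 in si-BAP1 and 60.7 ± 3.9 in control cells (log2 -0.08, adjusted p = 0.383), H2BC21 112 ± 0.066 and 113 ± 3.6 (adjusted p = 0.974), and H2BC15 87.9 ± 1.6 and 85.6 ± 7.3 (adjusted p = 0.743). H2BC26 and the pseudogene H2BC20P also had no call. Among the 6 genes listed as also making polyadenylated transcripts, H2BC5, H2AC6 and H2BC12 were higher, while H1-2, H2BC4 and H2BC21 had no call.

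Among H2A genes, H2AC6 rose most. It read 149, 145 and 138 on the control arrays, 197, 229.8 and 187 on the si-BAP1 arrays and 134, 152 and 153 on the si-MBD5 arrays. The si-BAP1 arrays lay above all others, and the control and si-MBD5 arrays overlapped. The log2 rise was 0.46 in si-BAP1 cells (SE 0.070, adjusted p = 0.000395), and the difference in si-MBD5 cells was 0.02 (adjusted p = 0.913). H2AC8 rose by 0.19 (adjusted p = 0.00862) and 0.22 (adjusted p = 0.00723) on its 2 probe sets. H2AC7 rose by 0.25 (adjusted p = 0.0184), a call lost without si-BAP1 replicate 2 (0.0745), si-Control replicate 1 (0.0718) or si-Control replicate 2 (0.067).

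H2AC20, a chromosome 1 gene, was the 1 gene among these 50 probe sets that fell; 3 probe sets fell with array weights. The si-BAP1 arrays read 316, 312 and 289.8, the control arrays 369, 385 and 328 and the si-MBD5 arrays 390.4, 397 and 356. Each si-BAP1 array was below every array of the other groups, and those overlapped. The difference from control was -0.22 on the log2 scale (SE 0.061, adjusted p = 0.0186). The call was lost without si-BAP1 replicate 3 (adjusted p = 0.0889), si-Control replicate 1 (0.07) or si-Control replicate 2 (0.1). Of the other H2A genes, H2AC11 had a log2 difference of 0.14, H2AC25 of 0.14 and H2AC15 of 0.14 and 0.05, none called; H2AC15's larger value had an adjusted p of 0.0534.

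H3C4 was the most changed H3 gene. It read 149, 145 and 144 in control, 219, 234 and 234 in si-BAP1 and 143, 161 and 161 in si-MBD5 cells. The si-BAP1 arrays stood clear of the rest, while the si-MBD5 range spanned the control range. The log2 rise was 0.60 in si-BAP1 cells (SE 0.051, adjusted p = 3.48e-06), and the difference in si-MBD5 cells was 0.07 (adjusted p = 0.399). H3C8 rose by 0.43, 0.31 and 0.21 on its 3 tested probe sets in si-BAP1 cells; the first read 73.3, 79.5 and 76.0 in control, 108, 109.6 and 107 in si-BAP1 and 91.0, 91.0 and 87.2 in si-MBD5 cells, with no overlap among the groups. The smallest of these rises was lost in 5 of 19 other settings, which left out 1 of the si-BAP1 arrays (adjusted p up to 0.0954), si-Control replicate 1 (0.0838) or si-Control replicate 3 (0.095). H3C7, H3C12 and H3-4 were not called, with log2 differences of 0.05, -0.07 and -0.13.

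Among H4 probe sets with a single gene symbol, H4C8 was the only call after BAP1 knockdown; 2 probe sets that list several H4 genes were also higher and are described with the other observations. It read 66.7, 71.0 and 66.6 in control, 86.5, 92.2 and 72.6 in si-BAP1 and 61.0, 63.3 and 71.0 in si-MBD5 cells, so si-BAP1 replicate 3 lay near the highest control array. The log2 rise was 0.24 (SE 0.071, adjusted p = 0.0272) and was lost in 6 of 19 other settings, among them those without si-BAP1 replicate 1 (adjusted p = 0.0926), si-BAP1 replicate 2 (0.119), si-Control replicate 1 (0.0836) or si-Control replicate 3 (0.0785). H4C3 had log2 differences of 0.09 and 0.11 on its 2 probe sets (adjusted p = 0.194 and 0.196). H4C12, H4C1, H4C9, H4C7 and H4C2 had no call either, with differences from -0.01 to 0.15.

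The linker histone genes had no call against control. H1-2 read 1163, 1158 and 1098 in control, 1166, 1219 and 1239 in si-BAP1 and 1021, 1127 and 1150.2 in si-MBD5 cells. The si-BAP1 arrays lay just above the control arrays (log2 0.08, SE 0.046, adjusted p = 0.241), and the si-MBD5 arrays overlapped them (log2 -0.05, adjusted p = 0.525). H1-10, H1-3, H1-4, H1-5 and H1-1 had log2 differences from -0.16 to 0.07 in si-BAP1 cells. H1-1 had the lowest, with means of 67.0 ± 7.2 in si-BAP1 and 77.1 ± 12 in control cells (adjusted p = 0.224).

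**Figure D3:**
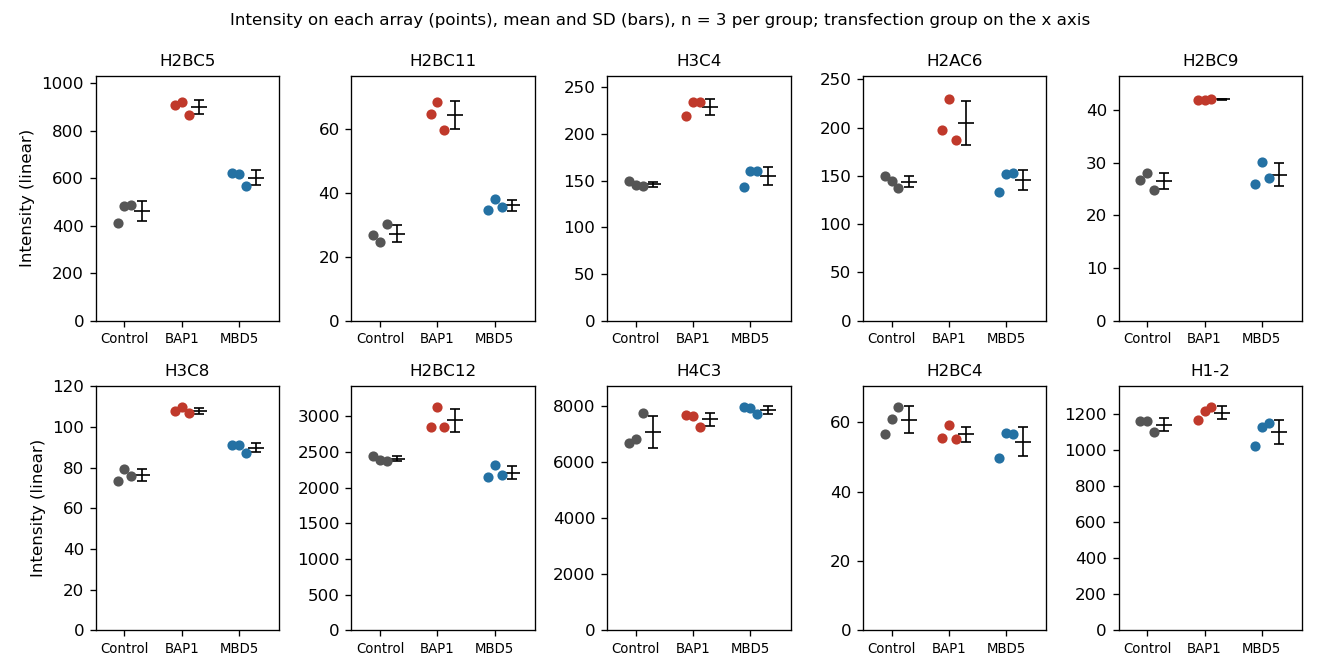
Linear intensity of 10 histone probe sets on each of the 9 arrays (points: grey control, red si-BAP1, blue si-MBD5), with mean and SD of each group beside them (n = 3). H2BC5, H2BC11 and H3C8 show 3 separate groups, H3C4, H2AC6 and H2BC9 show si-BAP1 alone above the rest, and in H2BC4 and H4C3 both knockdowns overlap the control.

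After MBD5 knockdown fewer histone probe sets passed the test. There were 9 calls among the 50 (18%, where 12.6% of all probe sets were called), all of them rises (5.89% of all probe sets were called higher), and 0 falls by limma (6.66% called lower); 19 of the 50 had an unadjusted p under 0.05. All 3 si-MBD5 arrays lay above the control arrays for 13 probe sets (13.3% of all) and below them for 1 (14.5% of all), together 28% against 27.8%, a share close to the background. The median log2 fold change was 0.067, against 4e-04 over all tested, and 0.033 without a filter or 0.044 with an added constant of 64. The 9 calls belonged to H2BC5 (3 probe sets), H3C8 (2), H4C3 (2), H2BC11 and H2AC17. Counted once per gene by the brightest probe set, 3 of 36 were called (8.33%), below the 16.3% of all genes, so the share of called histone genes was not above the background on that count. Without si-Control replicate 1 or si-Control replicate 2 the count was 5 (10%, against 8.63% and 7.66%).

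H4C3 was called after MBD5 knockdown but with overlapping arrays. One probe set read 6672, 6820.4 and 7738 in control, 7686, 7627 and 7239 in si-BAP1 and 7959, 7920.5 and 7694 in si-MBD5 cells. Control replicate 3 lay above 1 of the si-MBD5 arrays. The log2 rises in si-MBD5 cells were 0.15 (SE 0.045, adjusted p = 0.0387) and 0.19 (SE 0.055, adjusted p = 0.0408) on the 2 probe sets, and each was lost in 9 other settings, reaching 0.16 and 0.165. These included the settings without si-Control replicate 1, si-Control replicate 2, si-MBD5 replicate 1 or si-MBD5 replicate 2. H2AC17 read 38.5, 39.4 and 38.2 in control and 44.0, 49.2 and 44.8 in si-MBD5 cells, without overlap. Its rise of 0.18 (adjusted p = 0.037) was lost in 8 of 18 other settings, among them every setting with 1 array left out (adjusted p 0.054 to 0.105), and its second probe set had a log2 difference of 0.11 (adjusted p = 0.229). H3C8 rose by 0.20 (adjusted p = 0.0104) and 0.18 (adjusted p = 0.0236), and the third H3C8 probe set, at 0.16, was not called. The second H3C8 call was lost without si-Control replicate 1 (0.0944), si-Control replicate 3 (0.0546), si-MBD5 replicate 1 (0.0503) or si-MBD5 replicate 3 (0.0809).

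The knockdowns were also compared with each other, without the control arrays entering the difference. In si-BAP1 against si-MBD5, 16 of the 50 histone probe sets were called (32%, where 7.7% of all were called), 14 of them higher in si-BAP1 (4.53% of all) and 2 lower (3.16% of all). The si-BAP1 arrays all lay above the si-MBD5 arrays for 20 histone probe sets (14.7% of all) and below them for 5 (8.61% of all), together 50% against 23.3%. Per gene, 10 of 36 were called (27.8%, against 9.98%). H2BC11 was higher in si-BAP1 cells by 0.62 (adjusted p = 3.52e-05), H2BC5 by 0.56, 0.50 and 0.42, H3C4 by 0.52 (adjusted p = 4.35e-05), H2AC6 by 0.44 (adjusted p = 0.00172) and H2BC12 by 0.41 (adjusted p = 4e-05). All 3 H2BC9 probe sets were higher, by 0.41, 0.33 and 0.23, and H4C8 was higher by 0.30 (adjusted p = 0.0221). Smaller rises over si-MBD5 were called for H3C8 (0.23, adjusted p = 0.00645), H2BC8 (0.20, adjusted p = 0.046) and H2AC15 (0.19, adjusted p = 0.0258). H2AC20 was lower in si-BAP1 than in si-MBD5 cells, by -0.30 (adjusted p = 0.00846), and H1-1 by -0.31 (adjusted p = 0.0464). The H1-1 arrays read 74.4, 66.7 and 60 in si-BAP1 and 83.9, 91.1 and 84.0 in si-MBD5 cells, without overlap, but that call was lost in 8 of 20 other settings, among them those without si-BAP1 replicate 2 or 3 or any 1 of the si-MBD5 arrays. The H2AC20 call was lost without si-MBD5 replicate 1 (adjusted p = 0.0513). H4C8 lost its call without si-BAP1 replicate 1 (0.0793), si-BAP1 replicate 2 (0.0965) or si-MBD5 replicate 1 (0.11), and the weakest H2BC9 call was lost without si-BAP1 replicate 1 (0.0767) or si-MBD5 replicate 3 (0.0688). H2BC8 and H2AC15 lost theirs in 9 and 6 other settings, with an adjusted p up to 0.189 and 0.0959. H4C3 did not differ by the test between the knockdowns (log2 -0.06 and -0.08, adjusted p = 0.456 and 0.467).

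Among genes with a probe set of their own, those called higher in si-BAP1 cells all lay on chromosome 6, which holds 54 of the 67 genes. H2AC20, which fell, lies on chromosome 1. Few genes were tested there: 3 of 5 from H2BC18 to H2AC21 and 3 of 3 from H3-4 to H2BC26. The split by chromosome covers single-gene probe sets only. Probe sets that list several genes were left out of these counts, and the chromosome of their genes was not read here. Of those left out, the probe set listing H4C14 and H4C15 rose by 0.44 in si-BAP1 cells (limma adjusted p = 2.82e-05). Another, listing H2AC18 and H2AC19, was lower (log2 -0.15, adjusted p = 0.0259). Gaps over 400 kb between gene starts divide the chromosome 6 genes, in RefSeq order, into 3 runs. From H2AC1 to H4C8 there are 34 genes, of which 19 were tested and 9 were higher in si-BAP1 cells: H2AC6, H2BC5, H3C4, H2AC7, H2BC8, H2AC8, H2BC9, H3C8 and H4C8. From H2BC11 to H2AC12, 4 of 5 genes were tested and H2BC11 and H2BC12 were higher. From H2BC13 to H2BC17, 6 of 15 genes were tested and 0 were called in si-BAP1 cells by limma, while H2AC17 was higher in si-MBD5 cells. H4C12 lies in this run, and the left-out probe set listing H4C12 and H4C11 rose by 0.35 in si-BAP1 cells (adjusted p = 0.000744). Over all genes read by the brightest probe set, 11.7% were called higher in si-BAP1 cells and 6.68% in si-MBD5 cells. The counts by run use a looser rule, which takes a gene as higher if any of its tested probe sets was called. H2AC17 was called only on its dimmer probe set. Whether the runs differ was not tested.

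**Figure D4:**
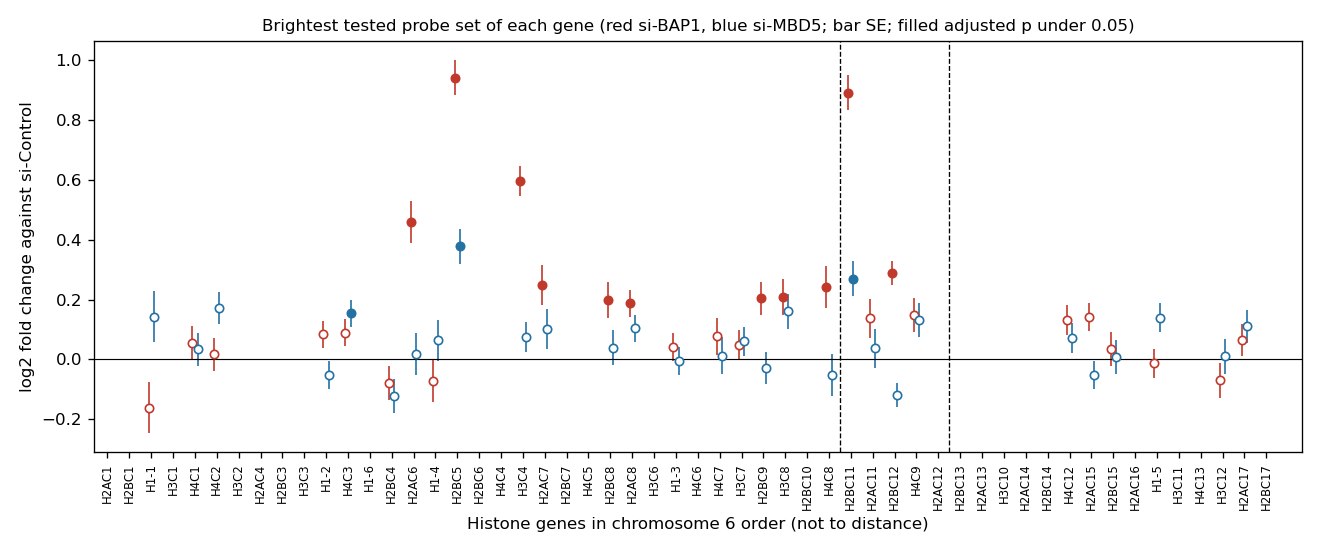
Log2 fold change against si-Control of the brightest tested probe set of each chromosome 6 histone gene, in chromosome order and not to distance, in si-BAP1 (red) and si-MBD5 cells (blue); bars are standard errors, filled points have an adjusted p under 0.05, and dashed lines mark gaps over 400 kb. The red filled points lie in the left and middle runs, and genes without a point were below the filter. Probe sets that list several genes are not shown.

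Neighbours that share a promoter region did not always change alike. H2AC6 rose by 0.46 while H2BC4, which starts 246 bases away on the other strand, had a log2 difference of -0.08. H2BC11 rose by 0.89, and its partner H2AC11, 248 bases away, had 0.14 (adjusted p = 0.169). In H2BC8 and H2AC8, 233 bases apart, both rose, by 0.20 and 0.19 on the brightest probe sets. H2AC20 fell by 0.22 on the log2 scale beside H2BC21, 236 bases away, which had a difference near 0 (-0.0037). Whether the members of a pair differ from each other was not tested.

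The octamer was found in the promoter windows of 8 of 11 genes called higher in si-BAP1 cells and of 5 of 21 tested genes with a promoter that were not. Those with it were H2AC6, H2AC7, H2AC8, H2BC8, H2BC9, H2BC11, H2BC12 and H3C4; H2BC5, H3C8 and H4C8 were without it. The 5 others were H2AC11, H2AC17, H2AC20, H2BC4 and H2BC21. The octamer also differs by family, with 0 of 9 H1 and 0 of 10 H4 promoters holding it. H2AC7 and H3C4 have the same window, and divergent neighbours can share an octamer, so these genes are not independent counts. Whether the octamer goes with the rise was not tested. Within H2B, the octamer was in 4 of 5 promoters of genes called higher and in 2 of 4 of the others. The H1-2 stretch printed above holds an H1 box and a CCAAT box, and the H1 box was in none of the 11 windows of genes called higher.

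Lists of genes outside the clusters that encode or handle histones were read by each gene's brightest probe set, beside the 11.7% and 10.6% of all genes called higher and lower by that rule in si-BAP1 cells and the 6.68% and 8.04% in si-MBD5 cells. Of 7 tested replacement histone genes, which encode histone variants, 2 were higher and 1 lower in si-BAP1 cells. The centromeric histone gene CENPA rose by 0.40 (adjusted p = 0.000333) in si-BAP1 and by 0.42 (adjusted p = 0.000562) in si-MBD5 cells, MACROH2A1 rose by 0.10 in si-BAP1 cells (adjusted p = 0.0381), and H3-3B fell by 0.10 and 0.12 on the log2 scale in si-BAP1 and si-MBD5 cells. H2AZ1, H2AZ2 and H2AX, variants of H2A, had differences of at most 0.05 with no call.

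Of 36 tested genes of the histone locus and of histone message processing, 4 were higher and 4 lower in si-BAP1 cells, and 2 were higher in si-MBD5 cells (median log2 0.038 and -0.0020); the si-BAP1 shares were close to those over all genes. SLBP, which binds the histone stem-loop, read 807 in si-BAP1, 945 in control and 889 in si-MBD5 cells and fell by 0.22 on the log2 scale in si-BAP1 cells (adjusted p = 0.00899); its other probe set fell by 0.17 (adjusted p = 0.0283). ERI1, an exonuclease that trims histone messages, fell by 0.25, the cap-binding gene NCBP1 by 0.34 and the cyclin gene CCNE2 by 0.55. NFYA, a subunit of the factor that reads CCAAT boxes, rose by 0.35 (adjusted p = 0.00277), E2F1 by 0.24, ZNF473, a histone message processing factor, by 0.23 and CPSF2, part of the cleavage complex, by 0.19. NPAT, which co-activates histone genes in S phase, CASP8AP2 and HINFP, the H4 promoter factor, had no call on any tested probe set. NPAT's brightest probe set read 352 in si-BAP1 and 355 in control cells (adjusted p = 0.915).

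Of 23 tested histone chaperone genes, 8 were higher and 0 lower by limma in si-BAP1 cells (median 0.11), and 2 were higher in si-MBD5 cells. They included RBBP4 (0.24), ASF1A (0.22), ATRX (0.21), ANP32E (0.20) and ASF1B (0.15), and in si-MBD5 cells SUPT16H (0.17) and UBN1 (0.17). Of 23 tested S phase genes, 11 were higher and 1 lower in si-BAP1 cells (median 0.14), against 4 and 1 in si-MBD5 cells (median 0.051). CDC25A rose by 0.42, GINS1 by 0.34, POLA1 by 0.32 and RRM2, a ribonucleotide reductase subunit, by 0.31 in si-BAP1 cells, while PCNA, the replication clamp, fell by 0.18 on the log2 scale. In si-MBD5 cells DTL rose by 0.25, TK1 by 0.23, GINS2 by 0.20 and PRIM1 by 0.16, and UHRF1 fell by 0.18. The part of cell cycle phase in the histone values was not tested.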

How the data were processed

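The deposited value table gives 1 intensity for each probe set and array, on a linear scale, made by the authors with MAS5 per the submitters' processing notes; the MAS5 version was not stated in the labels. Probe sets were named from the GEO platform annotation (44988 with 1 symbol, 1832 with several, 2473 with none), and promoters came from RefSeq. Histone probe sets and gene lists were chosen with earlier results of these data known. Control probe sets (102) were left out. Values were analysed as log2(intensity + 16) without further normalization, over probe sets with a mean above the 40th percentile, with limma 3.58.1 (lmFit, eBayes with an intensity trend) in R 4.3.3 on all 9 arrays and 3 group means. P-values were adjusted by Benjamini-Hochberg over all 29576 probe sets and called at 0.05. Alternatives changed the added constant, normalization, filter, probe set choice, weights, variance model, samples and replicate block, and left out each array. Named were tested probe sets that were called or among the largest differences, the brightest of each family, and genes of the lists that were called. The median standard error of a log2 difference was 0.053 over all probe sets tested. Same-numbered arrays of different groups correlated above 0.1 in their deviations in 3 of 9 pairs, so numbers were not taken as pairs. Between differently numbered arrays of different groups the correlations ran from -0.529 to 0.46. The source of these correlations was not tested, and the replicate block does not cover them.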

Additional observations from a re-analysis of the deposited data

How the results depend on the processing

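None of the called histone probe sets changed direction in any setting that tested it. In si-BAP1 against control 15 of 21 calls held in every setting that tested their probe set. For si-MBD5 against control 4 of 9 did so, and between the knockdowns 10 of 16. The stricter filter, the count per gene and the setting without _x_at and _s_at types did not test all of these probe sets. With the replicate block, 21, 8 and 15 probe sets were called for si-BAP1 against control, si-MBD5 against control and si-BAP1 against si-MBD5, and the log2 rises of H4C3 in si-MBD5 cells, 0.15 and 0.19, lost their calls (adjusted p = 0.0633 and 0.0607), as did H2BC8 between the knockdowns (log2 0.20, adjusted p = 0.0537); the arrays share only a number (correlations of -0.402 to 0.434).

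The median log2 change in si-BAP1 against control was 0.15 with a constant of 1 or none (the latter chosen after seeing the data), 0.084 with 64, 0.044 without a filter, 0.19 at the 60th percentile, 0.080 per gene, 0.057 without _x_at and _s_at probe sets and 0.11 with array weights (0.092 to 0.15 without 1 array). For si-MBD5 against control it was 0.082 with a constant of 1 or none, 0.044 with 64, 0.033 without a filter, 0.049 per gene and 0.051 with array weights (0.058 to 0.080 without 1 array). Between the knockdowns it was 0.042 with 64, 0.015 without a filter, 0.10 at the 60th percentile, 0.048 per gene and 0.036 without those types (0.055 to 0.080 without 1 array).

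Counts fell where fewer probe sets were tested: per gene to 12, 3 and 10 calls (higher 11, 3 and 8), and without those types to 9, 4 and 9 (higher 8, 4 and 7), in the same order; at the 60th percentile 9 were higher between the knockdowns. Without a filter, 113 were tested and 21, 7 and 13 called (18.6%, 6.19% and 11.5%, against 11%, 6.27% and 3.55% of all). Median centring left 21, 6 and 15 calls, with a si-MBD5 share of 12% against 10.9% of all. Fits of only the 2 groups compared left 21, 7 and 12. Array weights gave 26, 13 and 17, and quantile normalization 21, 10 and 16. Without 1 array, calls were 16 to 21, 5 to 7 and 11 to 14, rises 16 to 19, 5 to 7 and 11 to 13, and falls 0 to 2, 0 to 1 and 0 to 2. Falls numbered 3 with array weights in si-BAP1 against control, 1 with quantile normalization and 2 with array weights in si-MBD5 against control, and 1 with median centring, without a filter or without an intensity trend between the knockdowns. The cause was not tested. Signals near the filter and 3 arrays a group limit what small differences can show.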

Other observations

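Probe sets that list several histone genes were left out of the counts, and 9 of them carry histone symbols only. The probe set listing H4C14 and H4C15 read 782 ± 27 in si-BAP1, 573 ± 12 in control and 670 ± 46 in si-MBD5 cells. It rose by 0.44 (limma adjusted p = 2.82e-05) in si-BAP1 and by 0.22 (adjusted p = 0.00909) in si-MBD5 cells, without overlap with the control arrays. The probe set listing H4C12 and H4C11 rose by 0.35 (adjusted p = 0.000744) and 0.21 (adjusted p = 0.0353). These are larger rises than any tested single-gene H4 probe set showed (at most 0.24 in si-BAP1 and 0.19 in si-MBD5 cells). Which of the listed genes gave the signal cannot be read from these probe sets. The probe set listing H2AC7 and H3C4 rose by 0.25 in si-BAP1 cells (adjusted p = 0.0119).

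Of the pair of probe sets listing H2AC18 and H2AC19, 1 was lower in both knockdowns (858 in si-BAP1, 956 in control and 860.0 in si-MBD5 cells). Its log2 differences were -0.15 (adjusted p = 0.0259) and -0.15 (adjusted p = 0.042). The other had -0.11 and -0.14, neither called.

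The genes outside the clusters whose log2 values ran most like those of H2BC5 over the 9 arrays were HAS2, RHOBTB1, DCP2, CELF2 and TGOLN2, with Pearson correlations of 0.9872 to 0.9893. This describes 9 arrays in 3 groups that differ from each other, so the likeness is mostly in the group means. HAS2, a hyaluronan synthase, read 32.1, 35.5 and 39.1 in control, 73.5, 72.4 and 69.5 in si-BAP1 and 48.8, 53.8 and 48.8 in si-MBD5 cells. DCP2, an enzyme that removes the cap from messages, read 37.2, 52.2 and 50.3, then 90.8, 89.0 and 86.2, and 59.9, 64 and 55.6 in the same order.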
